A study of Caenorhabditis elegans with 2 samples.

Results

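Nuclear hormone receptors are transcription factors that bind DNA through a pair of zinc fingers and, in many cases, a small lipophilic ligand through a C-terminal domain. The family is far larger in *Caenorhabditis elegans* than in insects or mammals. Most of its members descend from an ancestor related to vertebrate HNF4, and only a small group has direct counterparts in other animals. In worm tissues, members are known to control fat metabolism, moulting, development and responses to toxins and pathogens. The genes described here are all protein-coding genes of the WBcel235 Ensembl annotation whose symbol starts with *nhr-*, which gave 269 of 19973 protein-coding genes.

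Binding of the bZIP transcription factor ATF-7 at these genes was measured by sequencing immunoprecipitated chromatin (ChIP-seq). The worms were whole young adults of both sexes of strain OP638, which is unc-119(tm4063) III; wgIs638 and expresses ATF-7 with GFP-FLAG at its C terminus. They had been synchronised by starving L1 larvae after bleaching. The labels name an anti-GFP precipitation in one field and an antibody to atf-7 in another. There was 1 group with 2 biological replicates, numbered 2 and 3, so no conditions were compared and no p-value is given. Which promoter drives the tagged copy is not given in the sources used here. In whole worms, binding in few cells and weak binding in many cells cannot be told apart.

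The 2247 peaks used here are those the authors kept in genome build ce11 by the irreproducible discovery rate (IDR), a measure of how well peaks rank alike in the replicates. A gene is called bound where an annotated 5′ end of it had a summit of this list no more than 1000 bp upstream or 200 bp downstream. Signal is the authors' own value per peak, and ranks only peaks of the same list. The read depth is unknown from the files. Intervals of percentages are exact Clopper-Pearson 95% intervals. They cover counting error only and take genes as independent, which neighbouring genes are not.

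ATF-7 was bound at 24 of the 269 receptor genes (8.92%, interval 5.8 to 13.0), beside 1245 of all 19973 protein-coding genes (6.23%). The interval of the receptor genes includes the share of all genes. The 24 genes carried 26 peaks, since *nhr-49* and *nhr-88* had 2 each. Weighted to the chromosomes on which the receptor genes lie, the share of all genes was 5.4%, and weighted to their upstream spacing it was 5.93%. No weighting was made for the number of annotated 5′ ends. Of the 269 receptor genes 95 had 2 or more, beside 5250 of all 19973. Over all genes 10.6% of these were bound, against 4.68% of those with 1, so such a weighting could raise the share. The homeobox genes named *ceh-* were bound at 2 of 63 (3.17%), the basic helix-loop-helix genes named *hlh-* at 2 of 25 (8.0%) and the chemoreceptor genes named *srh-*, another large nematode family, at 5 of 220 (2.27%). These shares were not tested against each other.

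Peaks at receptor genes were of ordinary strength. Their signal in the pooled reads ran from 106 to 396 with a median of 146, beside a median of 151 over all 1103 promoter peaks, and 12 of the 26 lay above that median. None of the 26 was among the 100 strongest IDR peaks, 8 were among the 561 strongest and 7 among as many of the weakest. Replicate 2 had a summit no more than 100 bp away at 25 of the 26, and so did replicate 3. Both had one at 24, beside 93.1% of all IDR peaks. Across these 24 peaks the signals in replicates 2 and 3 had a Spearman's rho of 0.739, beside 0.582 over the 2092 IDR peaks found in both. The points share the libraries and had to pass the IDR threshold.

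The sequences at the summits show how varied these sites are. TGACGTCA, the complete cyclic-AMP response element (CRE), is the palindrome of ATF and CREB dimers, and TGACG is its core. CACGTG is the E-box of basic helix-loop-helix factors, TGATAA is the site of the intestinal GATA factors, and AGGTCA is an element bound by nuclear receptors. Each sequence below runs 5′ to 3′ on the strand of its gene and comes from the WBcel235 genome. Capitals mark every match, on either strand, to the CRE, TGACG, the AP-1 site of Fos and Jun dimers, the E-box, TGATAA or AGGTCA. Overlapping matches merge, as the core does with the CRE. The first pair is that of the strongest receptor peaks, and the peak of *nhr-35* has no such match. The next pair holds the CRE, with only a short site shown for *nhr-43*, whose site lies in an exon.
nhr-68, V:11572993-11573074, plus strand: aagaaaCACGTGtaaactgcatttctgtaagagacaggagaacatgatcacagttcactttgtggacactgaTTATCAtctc
nhr-35, X:4532295-4532375, plus strand: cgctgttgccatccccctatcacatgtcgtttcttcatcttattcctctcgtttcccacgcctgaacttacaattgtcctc
nhr-88, II:2975689-2975769, plus strand: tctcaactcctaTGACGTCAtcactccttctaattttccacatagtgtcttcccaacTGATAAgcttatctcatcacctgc
nhr-43, IV:11899616-11899645, plus strand: aaacccatcgaTGACGTCAttgttccttac

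Other strong peaks held the CRE core or the related AP-1 site without the full CRE, as at *nhr-48*, *nhr-105*, which also has TGATAA, and *nhr-50*. The peak of *nhr-66*, stronger than those of *nhr-105* and *nhr-50*, held none of these motifs, and 7 of the 26 peaks had neither these nor the repeat GAGAGAGA within 100 bp of the summit. The sites of *nhr-99*, *nhr-135* and *nhr-31* carry an E-box, and that of *nhr-258* is the only one with AGGTCA.
nhr-48, X:15707590-15707678, plus strand: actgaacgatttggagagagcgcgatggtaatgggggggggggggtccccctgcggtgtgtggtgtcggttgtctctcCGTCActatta
nhr-105, IV:7049822-7049913, plus strand: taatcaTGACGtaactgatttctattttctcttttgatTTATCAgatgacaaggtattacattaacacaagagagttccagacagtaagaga
nhr-50, V:16000632-16000701, minus strand: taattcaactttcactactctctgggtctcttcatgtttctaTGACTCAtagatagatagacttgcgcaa
nhr-99, V:474645-474726, plus strand: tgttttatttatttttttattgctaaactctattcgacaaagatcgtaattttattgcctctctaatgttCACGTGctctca
nhr-135, V:7093954-7094034, minus strand: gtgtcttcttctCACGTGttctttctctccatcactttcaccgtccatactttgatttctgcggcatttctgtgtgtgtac
nhr-31, IV:8026464-8026544, minus strand: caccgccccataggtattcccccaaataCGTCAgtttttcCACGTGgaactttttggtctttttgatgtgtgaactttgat
nhr-258, IV:8043902-8043982, plus strand: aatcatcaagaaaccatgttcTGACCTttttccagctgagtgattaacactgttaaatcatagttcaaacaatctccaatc

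The strongest peak of the family lay at *nhr-68*, a receptor that acts with NHR-10 to switch on the vitamin B12-independent breakdown of propionate. Its signal was 396 pooled, 114 in replicate 2 and 281 in replicate 3, and it ranked 112 of the IDR list. The summit was 406 bp upstream of *nhr-68* and only 44 bp upstream of the divergent gene *H12C20.7*, so the peak cannot be assigned to one of them. *nhr-35* followed, with a signal of 315, 102 in replicate 2 and 211 in replicate 3, and an intergenic summit 356 bp upstream. It is a gene of the expanded group with no neighbour sharing the peak.

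*nhr-88* had a peak with the CRE 910 bp upstream and a weaker one 1079 bp away, 169 bp downstream of its 5′ end in an intron. The signals were 272 pooled, 83.8 in replicate 2 and 190 in replicate 3 for the first, and 114, 43.3 and 77.6 for the second. The order of the pair was the same in all 3 lists. *nhr-47* (269 pooled, 91.4 in replicate 2, 170 in replicate 3) had its summit 10 bp upstream of the 5′ end. That peak was shared with *dnj-19*, a gene of the DnaJ chaperone family, which starts 386 bp away in the other direction.

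*nhr-48* belongs to the conserved subfamily of DAF-12 and NHR-8, relatives of the vertebrate vitamin D and pregnane X receptors. Its peak had a signal of 240 pooled, 101 in replicate 2 and 143 in replicate 3, with the summit 583 bp upstream. *nhr-66*, a partner of NHR-49 in the control of lipid genes, had a signal of 239 pooled, 78.8 in replicate 2 and 168 in replicate 3. Its summit lay 261 bp upstream of one of 7 annotated 5′ ends, within the 5′ UTR of a longer transcript of the same gene. *nhr-105* was among the few with a higher value in replicate 2 (115) than in replicate 3 (110), with 224 in the pooled reads. *nhr-50* (209 pooled, 64.9 in replicate 2, 143 in replicate 3) had its summit 30 bp upstream.

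*nhr-49*, a receptor known for fatty acid oxidation and desaturation and for stress resistance, was the only bound receptor gene on chromosome I. The peak with the CRE lay in an intron of the gene (I:9870820-9870979), 328 bp upstream of a downstream 5′ end, and the other (I:9869045-9869480) 388 bp upstream of another of the gene's 6 annotated 5′ ends. The signals were 199 pooled, 64.6 in replicate 2 and 136 in replicate 3 for the intronic peak, and 182, 57.2 and 130 for the other. The summits were 1637 bp apart.

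Below these, *nhr-57*, which is induced by HIF-1 in low oxygen, had a signal of 166 pooled, 52.2 in replicate 2 and 112 in replicate 3, with its summit 200 bp upstream. *nhr-8*, a conserved receptor of xenobiotic resistance and sterol balance, had 149 pooled, 55.3 in replicate 2 and 89.1 in replicate 3. Its summit was 15 bp downstream of the 5′ end, in the 5′ UTR. *nhr-255* (155 pooled) lay beside a tRNA gene, the only receptor peak within 200 bp of one. The bases around its summit had 14 similar copies elsewhere in the genome, the longest with 98.9% identity over 87 bp, so reads could be shared between copies.

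The 12 other peaks ran from 143 to 106 in the pooled reads. They lay at *nhr-99*, *nhr-135*, *nhr-58*, *nhr-1*, *nhr-142*, *nhr-43*, *nhr-119*, *nhr-31*, *nhr-256*, *nhr-291*, *nhr-258* and *nhr-114*. *nhr-31*, which drives vacuolar ATPase genes in the excretory cell, had 118 pooled. Its value was higher in replicate 2 (62.5, rank 988) than in replicate 3 (49.3, rank 4160). With *nhr-105* this made 2 of the 24 peaks found in both, beside 6.55% of all IDR peaks found in both. Each list has its own scale, so a higher value need not be a stronger peak. *nhr-31* and *nhr-258* point away from each other across 15424 bp. The *nhr-258* summit lay in that gap. The *nhr-31* summit lay in an intron of *nhr-31*, 467 bp upstream of a 5′ end that is not its most upstream one.

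Some of these peaks were matched at the summit in 1 replicate list or lay near an edge. The *nhr-256* peak (118 pooled, 79.8 in replicate 3) had no counterpart within 100 bp in replicate 2, and the *nhr-258* peak (112 pooled, 47.3 in replicate 2) had none in replicate 3. Elsewhere in the promoter, replicate 2 had a summit of 53.0 at *nhr-256* and replicate 3 one of 40.7 at *nhr-258*. The summit of *nhr-258* was also 996 bp upstream, just inside the promoter window. At *nhr-142* the summit was 489 bp upstream of the receptor gene and 188 bp upstream of *F44E7.9*, with only 25.4 in replicate 2 (rank 8425) against 90.9 in replicate 3 (rank 1282). *nhr-114*, a receptor that protects the germ line from dietary metabolites, had the lowest signal (106 pooled, 24.9 in replicate 2, 62.9 in replicate 3; replicate 2 had a stronger summit of 53.0 elsewhere in the promoter), close to the lowest of the IDR list (104.6). Its summit lay 700 bp upstream in an intron of *Y45G5AM.9*.

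**Figure D1:**
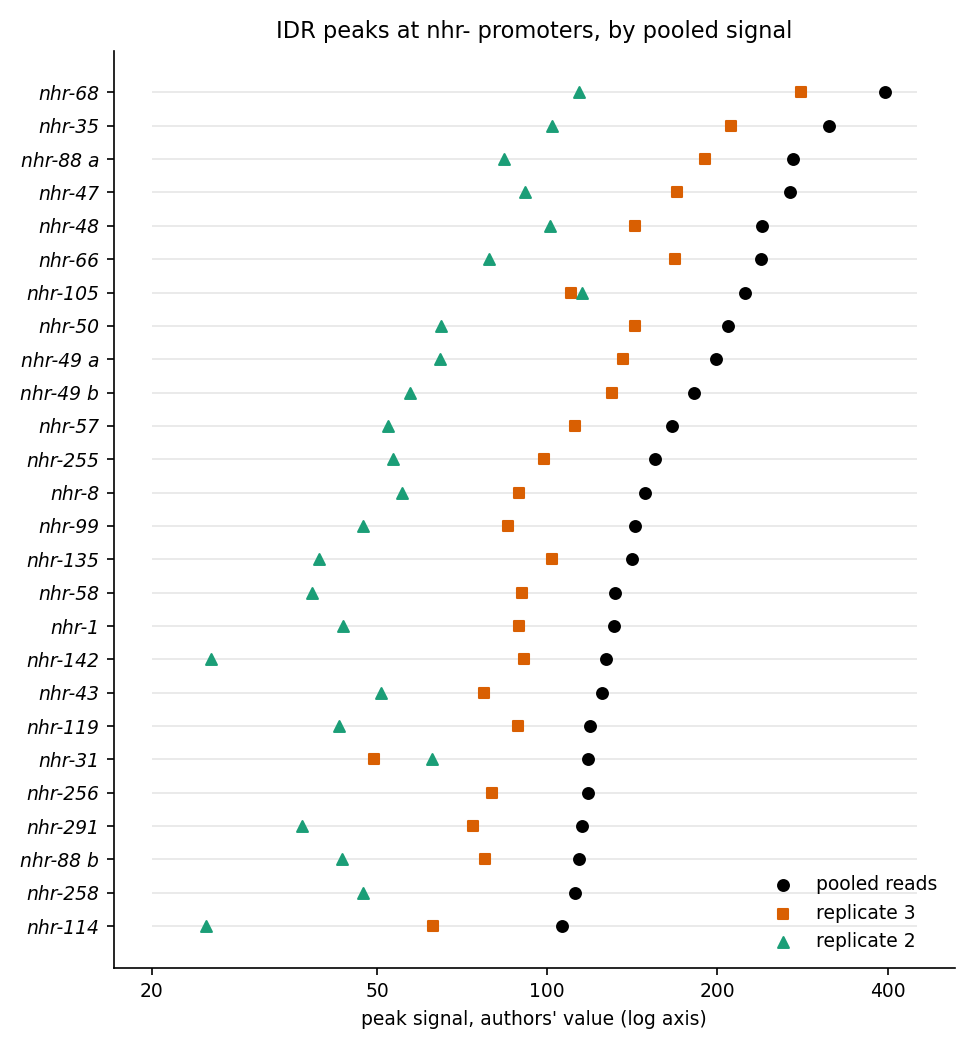
Signal of the 26 IDR peaks at receptor promoters (log axis, the authors' value per peak) for pooled reads (black), replicate 3 (orange) and replicate 2 (green), ordered by the pooled signal, with a and b for the pair of peaks of *nhr-88* and of *nhr-49*. Replicate 3 lies above replicate 2 except at *nhr-105* and *nhr-31*; *nhr-256* has no point in replicate 2 and *nhr-258* none in replicate 3, and each list has its own scale.

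Of 11 receptors with counterparts in insects or mammals, *nhr-48* and *nhr-8* were bound (18.2%, interval 2.28 to 51.8), beside 22 of the 258 others (8.53%, interval 5.42 to 12.6). The intervals overlap, the one of the 11 genes is wide, and a difference was not tested. Both bound genes belong to the same subfamily. *daf-12*, of the same subfamily, is not named *nhr-* and was not bound, with the nearest summit 1681 bp downstream of a 5′ end and 2 summits within the gene.

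The other 9 conserved receptors had no IDR summit in a promoter. *nhr-85*, the counterpart of insect E75, came closest, with a peak of 101 in the pooled list before the IDR threshold, 36.0 in replicate 2 and 62.4 in replicate 3. *nhr-41* (60.3 pooled), *nhr-239* (50.6), *nhr-6* (30.1), *nhr-23* (29.7) and *nhr-91* (26.6, rank 27301) had weaker entries there. By its name that list holds background as well as peaks, so a weak entry need not be binding. *nhr-25*, *nhr-67* and *nhr-111* had none in the pooled list. The nearest IDR summit was 2024 bp upstream of *nhr-6*, a receptor of spermatheca development, and 60132 bp from *nhr-23*, which drives moulting. Among other receptors without the prefix, *fax-1*, *odr-7*, *sex-1* and *unc-55* were unbound and had no pooled peak.

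Of 12 receptors listed for metabolism, 5 were bound (41.7%, interval 15.2 to 72.3), beside 6.23% of all genes and 8.92% of all receptor genes, namely *nhr-68*, *nhr-66*, *nhr-49*, *nhr-31* and *nhr-114*. The list was drawn up with earlier results of these data known, so its share cannot show an excess and was not tested. The unbound ones were *nhr-10*, *nhr-13*, *nhr-14*, *nhr-62*, *nhr-64*, *nhr-69* and *nhr-80*, with at most 59.0 (*nhr-69*) in the pooled list. *nhr-10*, the partner of *nhr-68*, had 27.6 there. *nhr-14*, a receptor of iron uptake and immunity, had an IDR summit inside the gene, 819 bp downstream of a 5′ end.

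Of 7 receptors of stress and defence, 3 were bound (42.9%, interval 9.9 to 81.6), beside the same 6.23% of all genes. These were *nhr-49*, which is also in the metabolic list, *nhr-8* and *nhr-57*. This list, too, was drawn up with earlier results known, so its share cannot show an excess. *nhr-14*, *nhr-45*, *nhr-86*, a sensor of a bacterial phenazine, and *nhr-176*, a receptor of the response to a toxic drug, were not. Of these, *nhr-86* had the highest pooled value, 53.1.

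None of the 8 receptors of development was bound, beside 6.23% of all genes and 8.92% of all receptor genes. The interval reaches 36.9%, so it includes both shares and overlaps that of the metabolic list. *nhr-2* (92.9), *nhr-40* (83.7) and *nhr-85* (101) had peaks in the pooled list not far below the lowest IDR signal, while *nhr-60* and *nhr-67* had none. In all, 8 of the 30 genes in any of these lists were bound (26.7%, interval 12.3 to 45.9), beside 16 of the 239 in none (6.69%, interval 3.87 to 10.6). Outside chromosome V the counts were 5 of 22 in the lists and 8 of 80 in none, and on V they were 3 of 8 and 8 of 159. The lists hold receptors that have been studied, were drawn up with the earlier results of these data known, and were not tested.

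**Figure D2:**
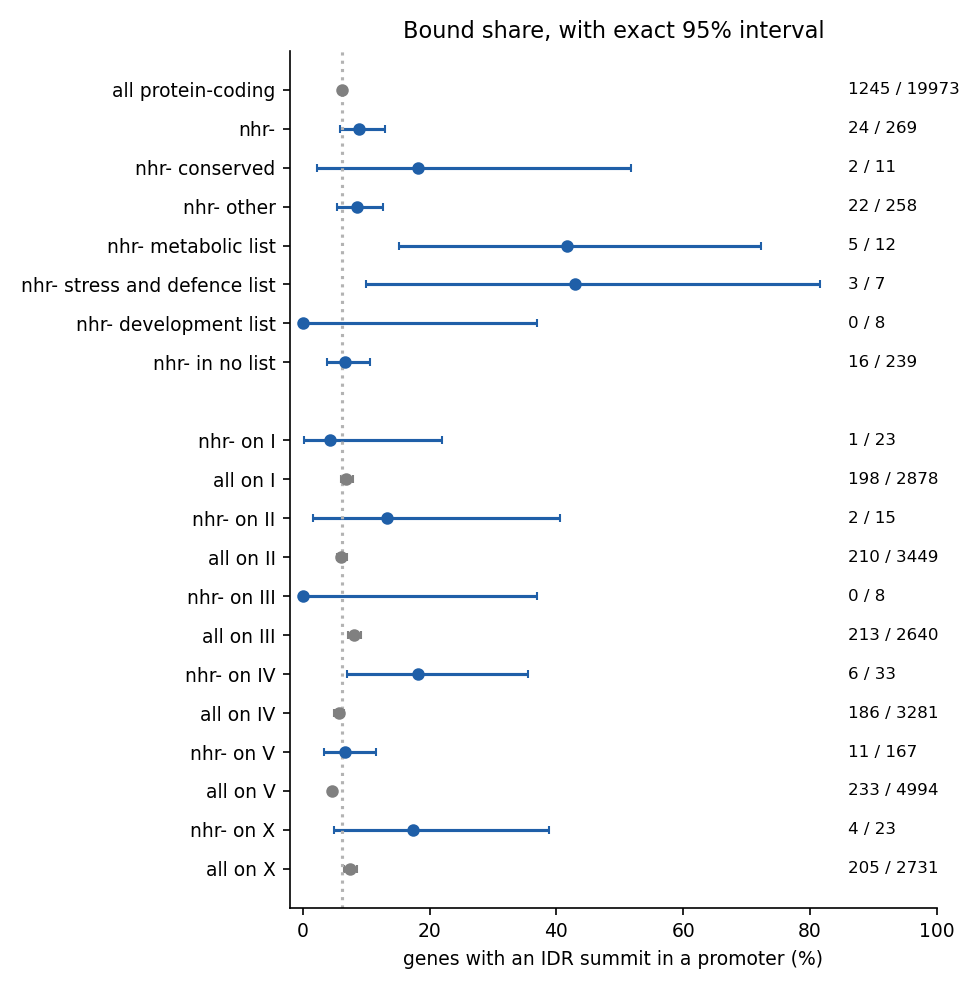
Percentage of genes with an IDR summit in a promoter, with exact 95% intervals and counts of bound and all genes, for the receptor groups and for each chromosome beside all its protein-coding genes. The dotted line is the share of all genes, 6.23%, and the receptor groups run from 0 of 8 development receptors to 3 of 7 stress and defence receptors. The role lists were drawn up with earlier results of these data known.

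Genes that act with these receptors were bound in some cases. Of 7 cofactor and ligand synthesis genes, 2 were bound (28.6%, interval 3.67 to 71.0), beside 6.23% of all genes. These were *cbp-1*, of the CBP and p300 acetyltransferases, and *din-1*, a co-repressor of DAF-12. The *cbp-1* peak, 857 bp upstream, had a signal of 506 pooled, 219 in replicate 2 and 285 in replicate 3, above every receptor peak. The *din-1* peak, 123 bp upstream, had 300 pooled, 102 in replicate 2 and 205 in replicate 3. The Mediator subunit gene *mdt-15*, a partner of NHR-49, was unbound (44.1 in the pooled list), as were *gei-8* and the dafachronic acid synthesis genes *daf-9*, *daf-36* and *dhs-16*. Of 5 known targets of NHR-49 and its relatives, the fatty acid desaturase gene *fat-6* was bound (252 pooled, 112 in replicate 2, 144 in replicate 3, 32 bp downstream). *fat-5*, *fat-7*, *acs-2* and *fmo-2* were not.

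Chromosome V held 167 of the receptor genes (62.1%), against 4994 of all 19973 protein-coding genes. There 11 were bound (6.59%, interval 3.33 to 11.5), beside 4.67% of all genes of that chromosome. Outside V, 13 of 102 were bound (12.7%, interval 6.96 to 20.8), beside 6.76% of all genes there. On IV, 6 of 33 receptor genes were bound (18.2%, interval 6.98 to 35.5), beside 5.67%, and on X 4 of 23 (17.4%, interval 4.95 to 38.8), beside 7.51%. The interval on IV lies above the share of all genes of that chromosome, and the one on X includes it. Of all the chromosomes looked at, only IV had such an interval, it rests on 6 genes, and it was not tested. Under the 10 other settings given below, *nhr-258* was bound in 6 and *nhr-31* in 7. The rest of these genes on IV were bound in 9 or 10. On II, 2 of 15 were bound (13.3%, interval 1.66 to 40.5), beside 6.09%. On I, 1 of 23 was bound (4.35%, interval 0.11 to 21.9), beside 6.88%, and on III none of 8 (interval up to 36.9%), beside 8.07%. The intervals on I, II and III include the share of all genes.

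Many receptor genes lie in clusters, above all on V. Of the 142 with another receptor gene within 5 kb, 7 were bound (4.93%, interval 2.0 to 9.89), against 17 of the 127 with none so close (13.4%, interval 8.0 to 20.6), beside 6.23% of all genes. The interval of the clustered genes includes that share. On V the counts were 6 of 112 (5.36%) and 5 of 55 (9.09%), beside 4.67% of all genes there, and outside V 1 of 30 (3.33%) and 12 of 72 (16.7%), beside 6.76%, with the lower share among clustered genes each time and overlapping intervals. No peak was shared between receptor genes, and 3 of the 26 were shared with a gene outside the family, beside 19.9% of all promoter peaks that were assigned to more than 1 gene.

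Upstream spacing is the distance from the most upstream 5′ end to the next protein-coding gene, and its median was 1590 bp for receptor genes and 940 bp for all genes. Bound receptor genes had a median of 2992 bp and unbound ones 1517 bp, while over all genes the order was opposite, with 729 bp for bound and 955 bp for unbound. The order did not hold on both sets of chromosomes. Outside V the medians were 7555 bp for 13 bound and 2663 bp for 89 unbound genes, and on V they were 676 bp for 11 bound and 1103 bp for 156 unbound genes.

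Of 51 receptor genes with at least 5000 bp upstream, 10 were bound (19.6%, interval 9.82 to 33.1), beside 142 of 2719 of all genes with such spacing (5.22%). Of the 218 with less, 14 were bound (6.42%), beside 6.39% of all such genes. Most of the 10 lay outside V, with 9 of 39 bound there (23.1%, interval 11.1 to 39.3), beside 5.59% of all genes, and 1 of 12 on V. These 10 genes were *nhr-1*, *nhr-31*, *nhr-35*, *nhr-43*, *nhr-48*, *nhr-88*, *nhr-105*, *nhr-119*, *nhr-135* and *nhr-258*. Among them *nhr-31* and *nhr-258* share the same gap of 15424 bp, and the *nhr-31* summit lay outside it, in an intron of the gene. With genes of every biotype as neighbours, non-coding ones included, 4 of 19 receptor genes with at least 5000 bp were bound (21.1%, interval 6.05 to 45.6), beside 5.22% of all such genes. These 4 were *nhr-1*, *nhr-48*, *nhr-88* and *nhr-119*, and the rest of the 10 had less than 5000 bp by this measure. The medians turned, to 698 bp for bound and 1025 bp for unbound genes.

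**Figure D3:**
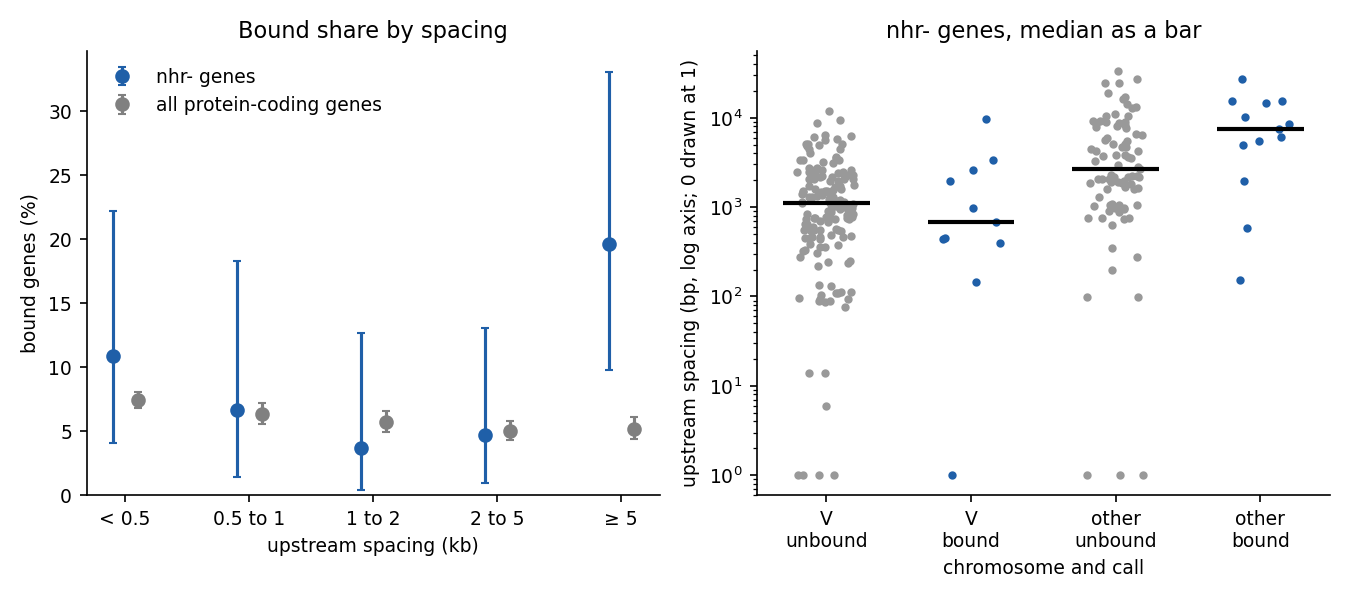
Left, bound share with exact 95% intervals by upstream spacing in kb, for receptor genes and all protein-coding genes. Right, upstream spacing in bp (log axis) of each receptor gene, on V and on the other chromosomes, with the median as a bar. Receptor genes with at least 5 kb upstream were bound at 19.6%, and bound genes lie above unbound ones in the median only outside V.

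Genes with several annotated 5′ ends, and so with more promoter windows, were bound at a higher share in both sets. Of 95 receptor genes with 2 or more 5′ ends, 14 were bound (14.7%, interval 8.3 to 23.5), beside 10.6% of all such genes. Of 174 with 1, 10 were bound (5.75%, interval 2.79 to 10.3), beside 4.68%, and the intervals of the receptor genes overlap. Annotated 5′ ends in the worm are often those of trans-spliced transcripts and may lie downstream of the start of transcription. *nhr-66* and *nhr-31* were bound only at a 5′ end that is not their most upstream one.

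Summits sat where they do at other promoters. The median position was 282 bp upstream of the 5′ end for receptor genes and 249 bp for all pairs of a peak and a gene. Upstream of the 5′ end lay 24 of the 26, beside 88.9% of all pairs. The window reaches further upstream than downstream, which favours upstream summits. Between genes lay 20 of the summits, beside 66.5% of all promoter summits, with 4 in introns and 2 in 5′ UTRs. None lay in a coding exon, where 7.52% of all promoter summits were. Of the 26 peaks 20 had the most common width of the list, 436 bp, as did 73.6% of all IDR peaks, so their summit is the centre of a fixed interval. The 6 narrower ones were those at *nhr-68*, *nhr-35*, *nhr-48* and *nhr-105*, with the CRE-bearing peaks of *nhr-88* and *nhr-49*.

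The motif counts at 26 receptor peaks have wide intervals. The CRE lay within 100 bp of 3 of 26 summits (11.5%, interval 2.45 to 30.2), at *nhr-88*, *nhr-49* and *nhr-43*, beside 9.52% of all promoter peaks. No receptor peak had it in the equally wide flanks centred 500 bp before and after the summit. In the flanks of all promoter peaks its share was 0.725%, so none at 26 peaks says little. The centre of the site was 3.5 bp from the summit at *nhr-49*, 24.5 bp at *nhr-88* and 46.5 bp at *nhr-43*. TGACG, on either strand and the CRE included, was at 12 (46.2%, interval 26.6 to 66.6), beside 41.8%, and in 7 of the flanks at lower coordinates and 6 of those at higher ones.

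The E-box was at 4 summits (15.4%, interval 4.36 to 34.9), beside 11.2% of all promoter peaks. It was in none of the flanks, beside 3.08% in the flanks of all promoter peaks. The 4 summits were those of *nhr-68*, *nhr-99*, *nhr-135* and *nhr-31*, with the site 32.5, 32.5, 25.5 and 2.5 bp away. None of them had the full CRE, and only *nhr-31* also had TGACG. The GATA site TGATAA was at 10 (38.5%, interval 20.2 to 59.4), beside 26.6%. Its mean share in the flanks was 23.1%, beside 18.9% in those of all promoter peaks. The repeat GAGAGAGA was at 3 (11.5%, interval 2.45 to 30.2), beside 7.62%, namely *nhr-1*, *nhr-43* and *nhr-119*. The AP-1 site was at 2 (7.69%, interval 0.946 to 25.1), *nhr-50* and *nhr-99*, beside 2.9%. The intervals of all 7 motifs include the share of all promoter peaks. The *nhr-43* window held 12 overlapping matches and resembled 2319 other stretches of the genome, so its placement is uncertain. AGGTCA was at 1 (3.85%), beside 6.62% of all promoter peaks, and the scrambled CRE TCAGATGC at none. In the flanks AGGTCA had 3.85%, beside 5.35% in those of all promoter peaks. The base composition was alike, with a median of 42.5% G and C in receptor windows and 42.3% in all promoter windows.

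**Figure D4:**
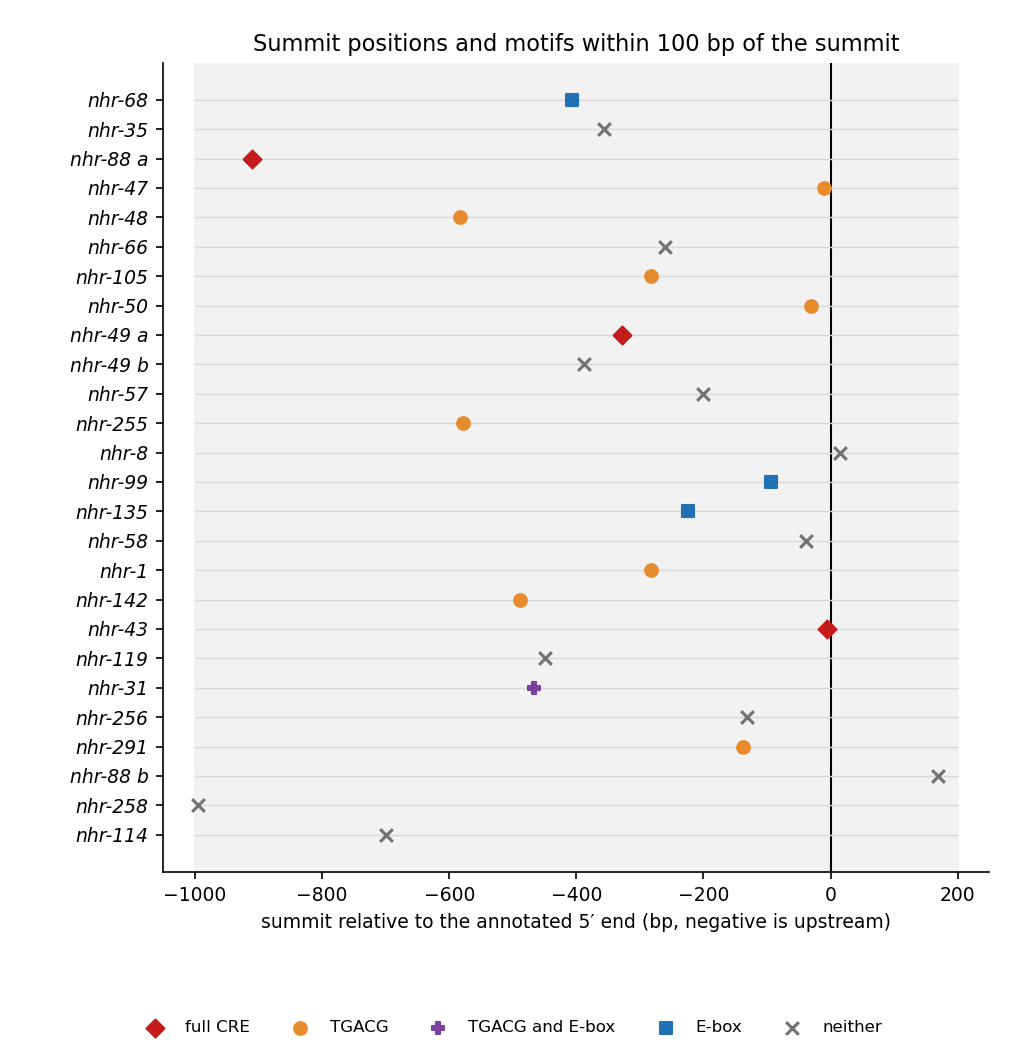
Position of each summit in bp relative to the annotated 5′ end of its receptor gene (negative is upstream; the shaded span is the promoter window), ordered by signal as in the plot of signals. Symbols give the CRE, TGACG without the CRE, and the E-box within 100 bp; 15 of the 26 peaks have TGACG or the E-box and 11 have neither.

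The CRE in a promoter did not by itself mark a bound gene. It occurred in the promoter windows of 23 receptor genes (8.55%), beside 7.21% of all genes, and 6 of the 23 were bound (26.1%). Over all genes 12.4% of those with the site were bound and 5.75% of those without it, and among receptor genes without it 7.32% were. Of the 6, *nhr-114*, *nhr-256* and *nhr-258* had the site more than 100 bp from the summit. Among the 17 unbound ones, *nhr-2* had the strongest pooled peak (92.9), and *nhr-116*, *nhr-141*, *nhr-204*, *nhr-221* and *nhr-245* had none. The E-box was in 60 receptor promoters (22.3%, beside 21.4% of all genes), and 12 of these 60 were bound, beside 397 of the 4277 genes with it in all (9.28%). Without the E-box 5.74% of receptor genes were bound, beside 5.4% of all genes. TGATAA was in 187 receptor promoters (69.5%, beside 75.4%), of which 23 were bound (12.3%), beside 6.56% of all genes with it. Of the receptor genes without it only 1 was bound (1.22%), beside 5.23% of all genes. With the AP-1 site 4 of 42 receptor genes were bound (9.52%, beside 7.26% of all genes with it), and with AGGTCA 11 of 92, beside 445 of 6093 (7.3%). The window counts sites anywhere in the promoter, and none of these shares was tested. Genes with several 5′ ends have more promoter windows, for a site as for a summit, and were not set apart here.

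The 245 unbound receptor genes were not near other peaks as a rule. Their nearest IDR summit had a median distance of 29211 bp, beside 22164 bp for all unbound genes. The lower quartiles were 12100 bp and 9070 bp. Of the receptor genes 30 had a summit within 5000 bp. Of these, *nhr-84* came nearest on the upstream side, with a summit 1259 bp upstream. In 7 the gene itself held a summit outside the promoters, namely *nhr-3*, *nhr-14*, *nhr-17*, *nhr-19*, *nhr-27*, *nhr-46* and *nhr-137*. Neither of these counts was made over all unbound genes, so neither sets receptor genes apart. Before the IDR threshold, the pooled list of 30000 peaks had a summit in a promoter of 125 receptor genes (46.5%, interval 40.4 to 52.6), beside 37.6% of all genes. The list of replicate 2 had one at 110 (40.9%), beside 36.9%, and that of replicate 3 at 121 (45.0%), beside 38.2%. Both had one at 75 (27.9%, interval 22.6 to 33.6), beside 26.0%, so the excess in the pooled list was smaller where each replicate had to show a summit.

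The unbound receptor genes with the strongest pooled peaks were *nhr-168* (102 pooled, 44.0 in replicate 2, 48.6 in replicate 3), *nhr-85*, *nhr-2*, *nhr-71* (89.9, 39.6 and 64.2) and *nhr-34* (88.9, 32.6 and 56.2). None reached the lowest signal of the IDR list, 104.6, and *nhr-168* came nearest. The median over the 101 unbound receptor genes with a pooled peak was 42.2, beside 43.2 over all unbound genes with one.

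The calls were also made under other settings, with the share of all genes moving along. With 500 bp to each side of a 5′ end 20 receptor genes were bound (7.43%, beside 5.15% of all genes), without *nhr-48*, *nhr-255*, *nhr-258* and *nhr-114*. With 2000 bp upstream 28 were bound (10.4%, beside 8.43%), and *nhr-21*, *nhr-32*, *nhr-63* and *nhr-84* were gained. With any overlap of a peak with the promoter 24 were (8.92%, beside 6.92%).

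Where a peak counted only for the nearest 5′ end, 22 were bound (8.18%, beside 5.14%), without *nhr-68* and *nhr-142*. With only the most upstream 5′ end of each gene 22 were bound (8.18%, beside 5.52%), without *nhr-66* and *nhr-31*. Without peaks near tRNA genes *nhr-255* was lost, leaving 23 (8.55%, beside 5.99%). With a summit of each replicate at the peak, 22 were bound (8.18%, beside 6.00%), without *nhr-256* and *nhr-258*.

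Among the stronger IDR peaks, split at the median signal of the list, 11 receptor genes were bound (4.09%), beside 3.38% of all genes. With as many of the strongest peaks of replicate 3 alone 21 were bound (7.81%, beside 6.27%), without *nhr-31*, *nhr-258* and *nhr-114*. With those of replicate 2 alone 20 were (7.43%, beside 5.90%), without *nhr-135*, *nhr-58*, *nhr-1*, *nhr-142*, *nhr-119* and *nhr-291* but with *nhr-168* and *nhr-193*. In each of these settings the share of receptor genes was above that of all genes, and the settings share peaks and genes.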

How the data were processed

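Per the labels and the listings deposited beside the peaks, the ce11 peaks come as relaxed lists, called against a control, for replicate 2 (28126 peaks), replicate 3 (30000) and the pooled reads (30000), with the authors' IDR list beside them. The relaxed lists are named as peaks and background for input to IDR. Which aligner, caller or IDR threshold was used is not given in the sources used here. No control library was analysed here. The deposited signal per peak was ranked within each list only. Values of replicates 2 and 3 were also set side by side, although each list has its own scale. The deposited −log10 q values were not used. The ce10 lists were not used here.

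Summits were joined to the WBcel235 genome (RefSeq copy) and Ensembl release 115 annotation, the same assembly as ce11, with 29314 protein-coding 5′ ends. Peaks counted for every gene whose promoter held the summit. Motifs were searched on both strands with Python 3.11.15, and similar copies with BLAST 2.17.0 (E-value 1e-5). The assignment and the motif search were tested on simulated data. No value was tested, since genes are not replicates.

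The genes named are all bound members, the conserved receptors, the role lists and the 5 unbound members with the strongest pooled peak. The unbound genes with a summit inside the gene, those with a CRE and those gained under other settings were named after their values were seen. Members and lists were chosen with earlier results of these data known. Coordinates count from 1.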

Additional observations from a re-analysis of the deposited data

How the results depend on the processing

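The share of bound receptor genes ran from 7.43% to 10.4% in 9 of the 10 other settings of windows, peaks and 5′ ends. Among the IDR peaks above the median signal of the list it fell to 4.09%, and that of the nematode-expanded receptors to 3.88%, by construction, since fewer peaks enter. It was 7.81% without replicate 2 and 7.43% without replicate 3. For the expanded receptors these values were 7.36% and 6.98%, and for the conserved ones 18.2% both times. The conserved share was 9.09% (1 of 11) with 500 bp to each side and among the stronger peaks, and 13.3% with *daf-12*, *unc-55*, *fax-1* and *sex-1* added. The CRE share was 11.5% within 50 bp and 15.4% within 200 bp. Bound minus unbound median upstream spacing was 1475 bp to protein-coding neighbours and -327 bp to neighbours of any biotype. The turn comes from the neighbours counted, since the genes and calls were the same. Without chromosome V, a setting chosen after seeing the data, 12.7% of receptor genes were bound. Of the 24 bound genes, 7 were bound in all 10 settings, namely *nhr-35*, *nhr-88*, *nhr-47*, *nhr-105*, *nhr-50*, *nhr-49* and *nhr-57*, and 15 in both single-replicate settings. The setting of stronger peaks alone left 11, which limits the first count by construction. Neither count was made over all bound genes, so neither sets receptor genes apart. No paired analysis was possible because the labels give 1 group. The number of replicates, 2, and the unknown depth limit what weak peaks can show.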
